A study of Mus musculus with 24 samples.

Results

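Genes of blood pressure and stress hormone signalling were followed in the mouse aorta: Agt, Ace, Agtr1a and Agtr2 of the renin-angiotensin system, and Nr3c1, Nr3c2, Hsd11b1 and Hsd11b2 of corticosteroid signalling. These 8 genes were chosen by symbol, with earlier results of these data known. Each has a single row among the 32561 rows of the deposited table. Polyadenylated RNA was measured in 24 aortas from mice congenic on 129S1/SvlmJ, in a study of renal failure, sex and a changed Bmp2 gene. The groups, each of 4 labelled animals, were Kl/Kl males homozygous for the Bmp2 mutation named ∆UCS (45 to 48 days old) and their control ∆UCS males (45 to 48 days), Kl/Kl Bmp2+/+ females (45 to 53 days) and control Bmp2+/+ females (45 to 53 days), and Kl/Kl Bmp2+/+ males (45 to 48 days) and control Bmp2+/+ males (44 to 48 days). Kl/Kl mice were homozygous for a recessive Klotho mutation and labelled as having renal disease, while controls carried no copy or 1 copy of it and were labelled as having healthy kidneys. The ∆UCS libraries are all from males. The mutation is present in the whole animal, so the kidney disease and any direct effect on the aorta cannot be told apart.

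Angiotensinogen, the product of Agt, is cut by renin and then by angiotensin-converting enzyme, the product of Ace, into angiotensin II. This peptide acts on the AT1 receptor (Agtr1a), which drives vasoconstriction, and on the AT2 receptor (Agtr2), which opposes many AT1 actions and is most abundant before birth. The glucocorticoid receptor (Nr3c1) and the mineralocorticoid receptor (Nr3c2) are hormone-activated transcription factors, and both bind cortisol-like steroids. Hsd11b1 mainly regenerates active glucocorticoid inside cells, and Hsd11b2 inactivates it, which leaves the mineralocorticoid receptor free for aldosterone.

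Values are TPM, a length-scaled share of each library, which here were scaled by the genomic span of each gene, so a TPM compares 1 gene between libraries and not genes with each other. Depth was 20620270 to 61112968 estimated reads per library, and mitochondrial genes took 40.2 to 61.23% of each library's total. That share was 40.86 to 52.51% in Kl/Kl and 53.53 to 61.23% in control ∆UCS males, which did not overlap. It was 44.95 to 54.78% and 52.2 to 59.99% in females and 40.2 to 55.8% and 47.34 to 58.61% in Bmp2+/+ males, without the 2 libraries doubted below, and its part in the Kl/Kl changes was not tested. A gene was called where limma's Benjamini-Hochberg adjusted p over all 27157 tested genes was under 0.05. The defining smooth muscle genes were present in all groups, with summed levels of 74.3 to 627.5 TPM. So were adipocyte genes (1348 to 3046 TPM), cardiomyocyte genes (28.6 to 4015 TPM) and genes of airway and alveolar epithelium (5.42 to 2835 TPM). The dissected tissue therefore held more than the vessel wall. Fabp4 (median 1348 TPM) gave most of the adipocyte sum. Scgb1a1 (459 TPM) and Scgb3a1 (149 TPM) gave most of the airway sum, while alveolar Sftpc had a median of 0.0275 TPM. In such bulk samples, fewer cells of a type and less RNA per cell cannot be told apart. By sex-linked transcripts, 2 libraries went against their labelled sex, Kl/Kl Bmp2+/+ male replicate 1 and Kl/Kl Bmp2+/+ female replicate 2. Their levels of Spp1, the gene of the matrix protein osteopontin, were 0.459 and 0.347 TPM, against 110 to 286 TPM in the other Kl/Kl Bmp2+/+ libraries and 0.199 to 5.54 TPM in all controls. Results below are for the other 22 libraries unless all 24 are named, and marker sums by group are given without the 2.

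The promoter of Agtr2 is shown because Agtr2 was the 1 member whose mean difference was called, and that of Agt because its product is the source of the pathway's peptides. The windows are the 250 bases before the annotated start, from RefSeq on GRCm38.p6, read on the gene's strand, and capitals mark a TATA motif.
Agtr2, chrX:21484374-21484623, plus strand: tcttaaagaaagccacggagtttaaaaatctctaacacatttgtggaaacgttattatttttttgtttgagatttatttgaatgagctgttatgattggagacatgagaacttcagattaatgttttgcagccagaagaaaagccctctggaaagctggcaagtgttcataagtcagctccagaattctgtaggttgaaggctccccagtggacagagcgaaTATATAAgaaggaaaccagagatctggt
Agt, chr8:124569707-124569956, minus strand: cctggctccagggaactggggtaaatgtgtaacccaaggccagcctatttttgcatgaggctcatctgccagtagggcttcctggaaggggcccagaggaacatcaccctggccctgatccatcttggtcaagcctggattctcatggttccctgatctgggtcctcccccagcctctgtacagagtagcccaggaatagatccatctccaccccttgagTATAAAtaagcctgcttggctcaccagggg
The Agt window held TATAAA, which begins 30 bases before the start, and 7.59% of 32851 windows hold it on the gene's strand. The Agtr2 window held TATATAA, which begins 28 bases before the start, and 2.05% of windows hold that. The corticosteroid receptor hexamer AGAACA was searched on both strands and was in 0 of the 6 windows found for 5 of the 8 members, against 16.1% of all windows. Its paired form, 2 such hexamers facing each other across 3 bases, was also in 0 of the 6, against 0.00913% of all windows. These letters describe the windows and nothing about binding.

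Levels were also taken per kilobase of exon and per fixed number of reads outside the mitochondrial genes (reads per kilobase of exon and per megaread). This scale is used for the order of the genes alone. Hsd11b1 stood highest, with a median of 55.71 (31.86 to 209.3) in the 10 Kl/Kl libraries and 80.41 (48.69 to 144.3) in the 12 controls. Nr3c1 came next, with a median of 22.23 (16.16 to 33.44) in Kl/Kl and 23.56 (17.95 to 28.55) in control libraries. The ranges of these 2 genes were separate in controls and overlapped slightly in Kl/Kl libraries. Ace had a median of 15.4 in Kl/Kl and 10.17 in control libraries, Agtr1a 4.03 and 5.03, Nr3c2 2.60 and 2.83, and Agt 1.81 and 1.57. Ranges of neighbouring genes in this order overlapped within the controls from Ace to Agt, except that the lowest Nr3c2 library (2.23) lay above the highest Agt library (2.08). Agtr2 and Hsd11b2 were the lowest, with medians of 0.712 and 0.235 in Kl/Kl libraries and 0.326 and 0.0964 in controls. On this scale Agtr1a stood above Agtr2, and Hsd11b1 above Hsd11b2, in order of median. Agtr1a spans 46427 bases of genome and Agtr2 4621, while Hsd11b1 spans 42442 and Hsd11b2 5234. Reads in introns, if they were counted, would raise the genes of longer span on this scale, and their part was not tested.

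**Figure D1:**
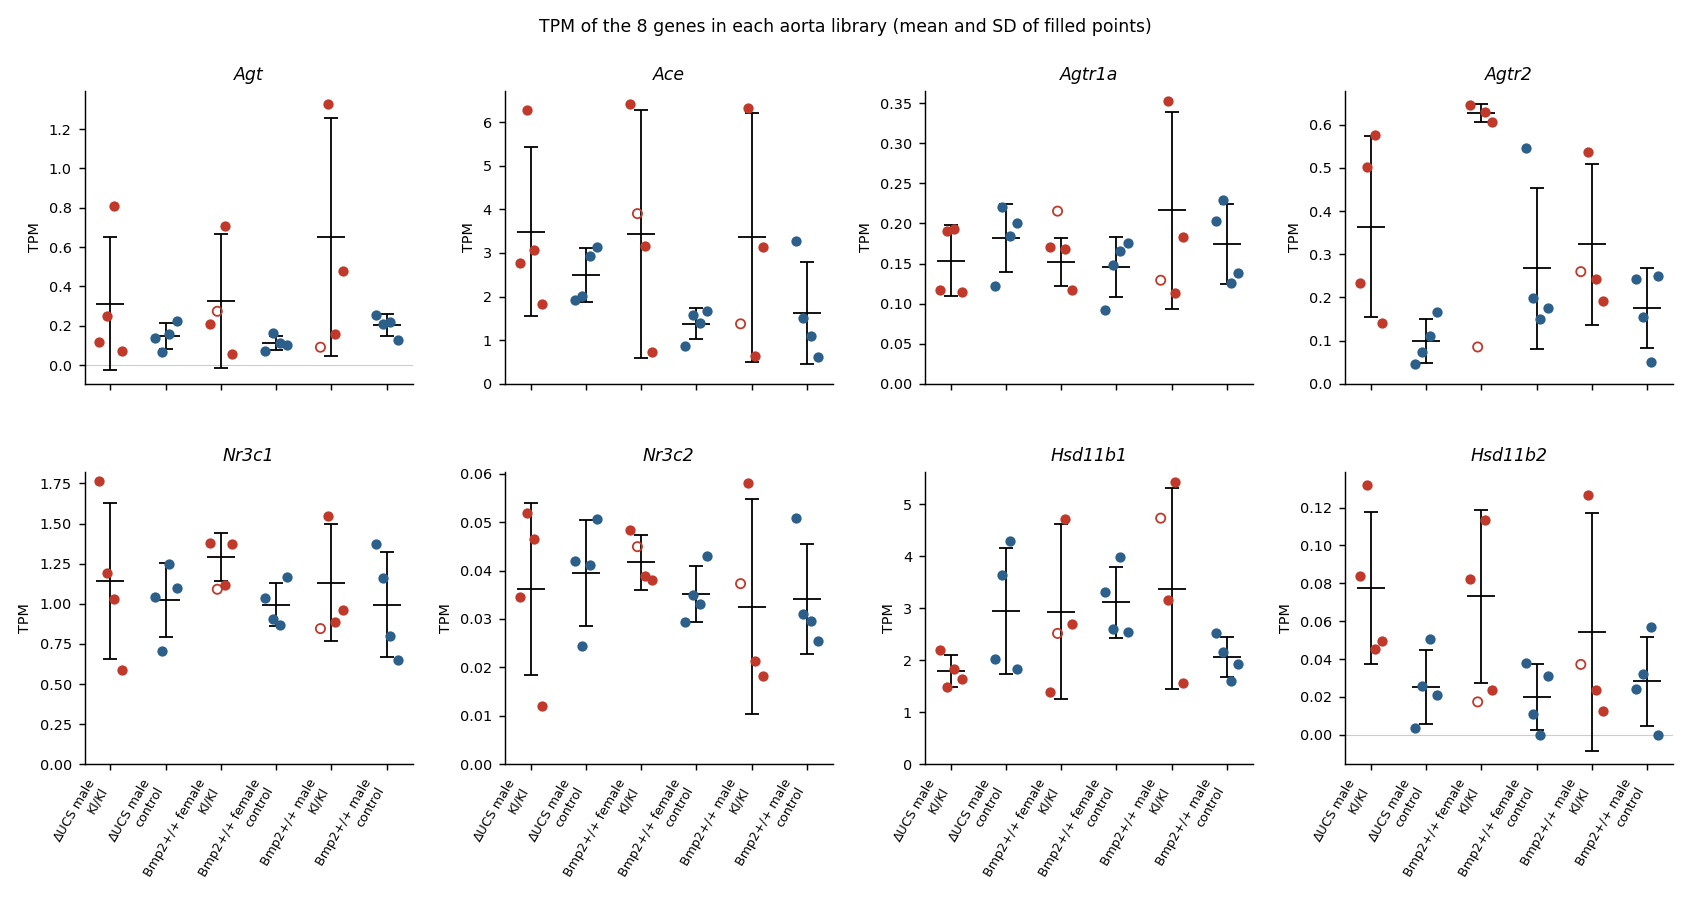
Deposited TPM (y axis, a separate linear scale for each gene) of the 8 genes in each library, with Kl/Kl groups in red left of their controls in blue. Points are libraries, open points the 2 libraries against their labelled sex, and bars the mean and SD of the filled points; the Kl/Kl females of Agtr2 sit between 0.606 and 0.647 TPM, above all 4 control females.

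The first question was whether any of the 8 genes differed between Kl/Kl and control aortas within a stratum. limma called 0 of 8 in ∆UCS males, where 0.545% of all tested genes were called, 0 of 8 in Bmp2+/+ females, where 1.82% were, and 0 of 8 in Bmp2+/+ males, where 0.556% were. At an unadjusted p under 0.05 the counts were 2 of 8 in ∆UCS males (13.9% of all genes), 2 of 8 in females (19.3%) and 0 of 8 in Bmp2+/+ males (8.39%). In both strata the 2 genes were Agtr2 and Hsd11b2. limma with voom on estimated reads also called 0 of 8 in each stratum, where 1.21%, 3.27% and 1.51% of genes were called in the same order. The fit of all 24 libraries called 0 of 8 beside 0.00734%, 0% and 0% of genes, and median-of-ratios scaling 0 of 8 beside 0.711%, 2.36% and 0.943%. With a pseudocount of 1 and a TPM of at least 1, only 3 members were tested and 0 were called, beside 0.649%, 2.63% and 1.11% of genes. Counting rises alone, 0.486%, 1.8% and 0.519% of genes were called in the 22 libraries. The median log2 change of the 8 genes was 0.22 in ∆UCS males, 0.62 in females and 0.41 in Bmp2+/+ males, beside 0.41, 0.50 and 0.10 over all tested genes. Under median-of-ratios scaling the median over all genes was 0.02, −0.06 and −0.04 in the same order, so changes on that scale lie lower than those given below. Averaged over the 3 strata, limma called 1 of 8 members, Agtr2, beside 13.2% of all tested genes (11.7% counting rises alone), and 2 of 8 had an unadjusted p under 0.05 beside 30% of genes. voom also called 1, beside 14.3% of genes. The count was 0 with all 24 libraries (6.69% of genes), under median-of-ratios scaling (10.4%), with a pseudocount of 1 and a TPM of at least 1 (27.3%), and with all 24 libraries under voom (7.43%) or median-of-ratios scaling (4.75%).

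Agt is the single gene for the angiotensin precursor (ENSMUSG00000031980, mm39 chromosome 8, 125283273 to 125296445, minus strand), and it had 24 to 501 reads per library. It measured 0.116, 0.2503, 0.807 and 0.0738 TPM in Kl/Kl ∆UCS males, against 0.138, 0.0683, 0.157 and 0.227 TPM in control ∆UCS males. Kl/Kl Bmp2+/+ females had 0.210, 0.708 and 0.0567 TPM, and 0.274 TPM in the library against its label, against 0.0730, 0.163, 0.113 and 0.104 TPM in control females. Kl/Kl Bmp2+/+ males had 1.33, 0.156 and 0.477 TPM, and 0.0911 TPM in the library against its label, against 0.257, 0.209, 0.222 and 0.128 TPM in control males. In each stratum 2 of the Kl/Kl libraries lay above all controls, and the others lay inside or below the control range. The log2 change, Kl/Kl over control, was 0.57 ± 0.75 (SE) in ∆UCS males, 0.88 ± 0.81 in females and 1.15 ± 0.82 in Bmp2+/+ males, with limma adjusted p of 0.734, 0.555 and 0.778. With all 24 libraries it was 0.57, 0.97 and 0.64 in the same order, and 0 of these were called. Across the 22 libraries, Agt went with the summed adipocyte genes (r = 0.772, and 0.749 over all 24, a description over libraries that share groups and scale). Those sums were 1348 to 2970 TPM in Kl/Kl and 1654 to 2043 TPM in control ∆UCS males, 1564 to 2896 and 1655 to 1941 TPM in females, and 2106 to 3046 and 1684 to 2316 TPM in Bmp2+/+ males. Agt also went with endothelial (r = 0.672) and adrenal steroid synthesis genes (r = 0.619) over the 22 libraries. After the group means were removed the values were 0.781 and 0.764, beside 0.723 with adipocyte genes. The adrenal sum came mostly from Star, with a median of 0.461 TPM. Its other measured genes had medians of at most 0.0209 TPM, that of Cyp21a1, which reached 0.694 TPM in its highest library. The part of fat or of other cells in the Agt values was not tested.

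Ace encodes the converting enzyme of the endothelial surface (ENSMUSG00000020681, chromosome 11, 105858771 to 105880790, plus strand), with 519 to 7236 reads per library. Its level was 2.77, 6.28, 3.08 and 1.83 TPM in Kl/Kl ∆UCS males, against 1.93, 2.01, 2.93 and 3.14 TPM in control ∆UCS males. In females it was 6.42, 3.15 and 0.734 TPM in Kl/Kl, with 3.90 TPM in the library against its label, against 0.867, 1.58, 1.40 and 1.68 TPM in controls. In Bmp2+/+ males it was 6.33, 0.629 and 3.13 TPM in Kl/Kl, with 1.38 TPM in the library against its label, against 3.28, 1.51, 1.09 and 0.614 TPM in controls. One Kl/Kl library in each stratum exceeded 6 TPM, a level that no control reached, and the groups overlapped in every stratum. The log2 change was 0.36 ± 0.68 in ∆UCS males, 0.87 ± 0.74 in females and 0.72 ± 0.75 in Bmp2+/+ males, with limma adjusted p of 0.813, 0.516 and 0.859. All 24 libraries gave 0.36, 1.04 and 0.59 in the same order, and 0 of these were called. With median-of-ratios scaling the value in ∆UCS males was −0.07 ± 0.47. Ace went with summed endothelial genes (r = 0.842) and with chondrocyte genes (r = 0.827) over the 22 libraries, and at r = 0.848 and 0.777 over all 24. Endothelial sums were 4.86 to 12.84 TPM in Kl/Kl and 8.45 to 11.51 TPM in control ∆UCS males, 5.39 to 10.85 and 4.76 to 7.99 TPM in females, and 6.07 to 13.75 and 4.51 to 10.26 TPM in Bmp2+/+ males. Their part in the Ace values was not tested.

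Agtr1a encodes the main vascular AT1 receptor of rodents (ENSMUSG00000049115, chromosome 13, 30520424 to 30566850, plus strand) and was the steadiest of the 4 angiotensin genes, between 0.0926 and 0.352 TPM over 24 libraries (152 to 536 reads). It measured 0.117, 0.191, 0.193 and 0.114 TPM in Kl/Kl ∆UCS males, against 0.122, 0.221, 0.185 and 0.20 TPM in control ∆UCS males. Females had 0.170, 0.168 and 0.117 TPM in Kl/Kl, with 0.215 TPM in the library against its label, against 0.0926, 0.149, 0.166 and 0.175 TPM in controls. Bmp2+/+ males had 0.352, 0.114 and 0.183 TPM in Kl/Kl, with 0.129 TPM in the library against its label, against 0.204, 0.229, 0.126 and 0.138 TPM in controls. Groups overlapped in all 3 strata. Averaged over the strata the log2 change was 0.01 with a 95% interval of −0.46 to 0.49 (limma adjusted p = 0.979), and 0.0048 ± 0.21 with all 24 libraries (limma adjusted p = 0.991). With median-of-ratios scaling the value was −0.37 ± 0.18 (limma adjusted p = 0.217), so the direction depends on the scaling. In ∆UCS males it was −0.64 ± 0.30 under that scaling (unadjusted p = 0.0448, limma adjusted p = 0.338). Agtr1a also went with the endothelial sum (r = 0.802). The second rodent AT1 gene, Agtr1b, had 3 to 32 reads per library and was below the filter.

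Agtr2 encodes the AT2 receptor (ENSMUSG00000068122, X chromosome, 21350783 to 21355403, plus strand) and had 8 to 153 reads per library, so counting error is a sizeable part of its spread. Kl/Kl ∆UCS males had 0.234, 0.503, 0.577 and 0.1403 TPM, against 0.0459, 0.0746, 0.110 and 0.165 TPM in control ∆UCS males. Kl/Kl females had 0.647, 0.630 and 0.606 TPM, against 0.545, 0.198, 0.151 and 0.175 TPM in control females, and the Kl/Kl library against its label had 0.0852 TPM. Kl/Kl Bmp2+/+ males had 0.536, 0.241 and 0.191 TPM, against 0.242, 0.155, 0.0515 and 0.251 TPM in control males, and the Kl/Kl library against its label had 0.260 TPM. Of the 3 strata only the females were free of overlap without the 2 doubted libraries, and a share of 26.6% of all tested genes had that property there. In ∆UCS males 3 of 4 Kl/Kl libraries exceeded every control, and in Bmp2+/+ males 1 of 3 did. No member was free of overlap in the other strata, where 7.2% (∆UCS males) and 6.04% (Bmp2+/+ males) of all genes were, nor in any stratum with all 24 libraries, where 7.2%, 10.1% and 1.8% of genes were in ∆UCS males, females and Bmp2+/+ males.

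The group means of Agtr2 were 0.364 ± 0.209 TPM in Kl/Kl and 0.0988 ± 0.0513 TPM in control ∆UCS males (SD, n = 4 each), 0.628 ± 0.0203 (n = 3) and 0.267 ± 0.186 TPM (n = 4) in females, and 0.323 ± 0.186 (n = 3) and 0.175 ± 0.0928 TPM (n = 4) in Bmp2+/+ males. The log2 change was 1.70 ± 0.56 in ∆UCS males, 1.40 ± 0.61 in females and 0.93 ± 0.62 in Bmp2+/+ males, with limma adjusted p of 0.186, 0.223 and 0.755. Averaged over the 3 strata it was 1.34, with a 95% interval of 0.62 to 2.07 (limma adjusted p = 0.0169). This mean difference stayed called when each of the 22 libraries was left out in turn, at 1.12 to 1.56 with limma adjusted p of 0.00594 to 0.0371. It was 1.09 with all 24 libraries (limma adjusted p = 0.0794), 0.96 with median-of-ratios scaling (0.0614) and 1.00 with voom on estimated reads (0.0497), and 0.74 under median-of-ratios scaling with all 24 libraries (0.231). The call therefore depends on the 2 libraries and on the scaling, while the sign was positive in each of these fits. The library names are spelt in 2 ways, which gives library sets 1 and 2. Within library set 1 the change in Bmp2+/+ males was 1.57 ± 0.90 (limma adjusted p = 1) from 2 Kl/Kl and 2 control libraries. Set 2 held 1 Kl/Kl library of that stratum, besides the doubted one, and 2 controls. The change there was −0.04 ± 0.71 (limma adjusted p = 0.986), where the lone Kl/Kl library is assumed to vary like the other groups. All females were in set 2 and all ∆UCS libraries in set 1, so no second set exists to compare there.

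**Figure D2:**
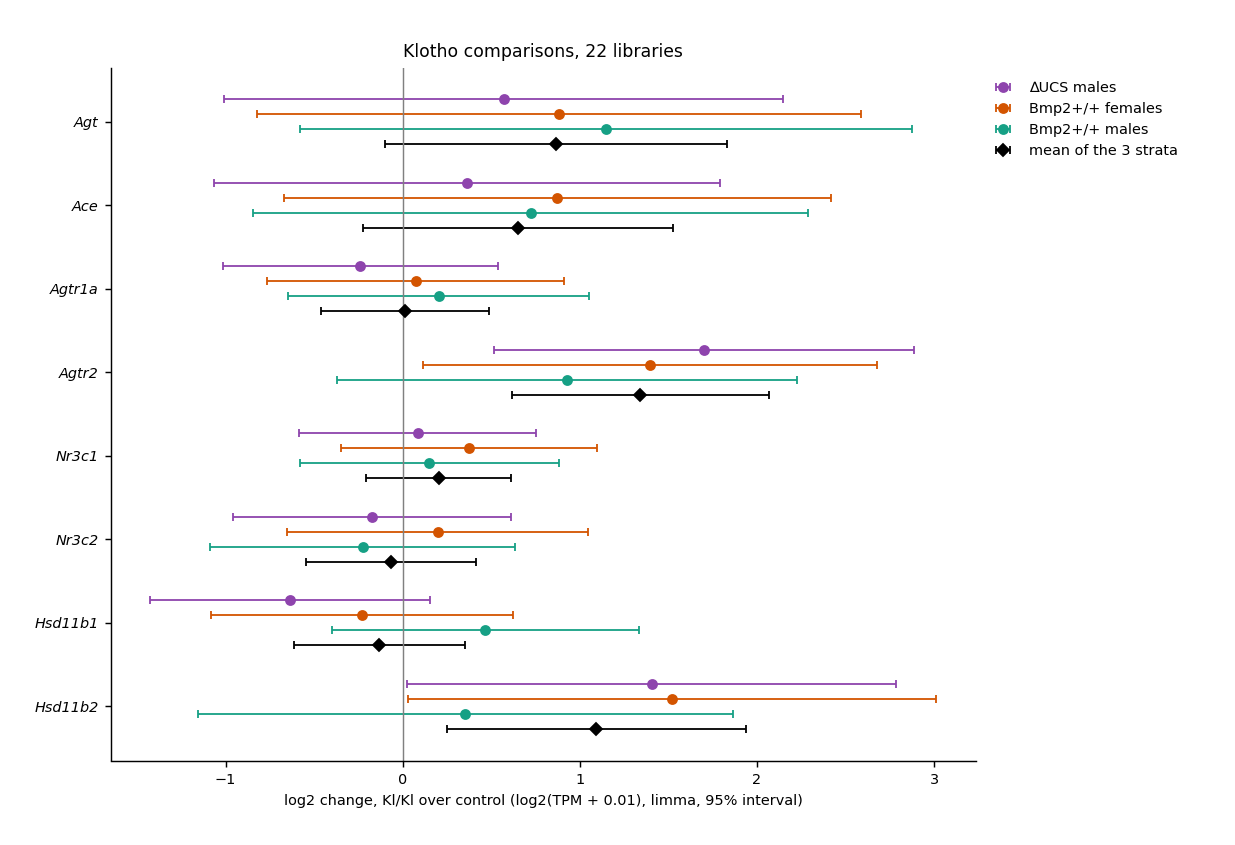
Log2 change, Kl/Kl over control, of the 8 genes in the 22 libraries (x axis), with limma 95% intervals, in ∆UCS males, Bmp2+/+ females, Bmp2+/+ males and their mean. For Agtr2 the mean is 1.34 and its interval of 0.62 to 2.07 lies above 0; for Agtr1a the mean is 0.01.

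Airway genes were among several marker lists that moved with Agtr2. The 6 airway and alveolar markers (Scgb1a1, Scgb3a1, Foxj1, Sftpc, Sftpb and Ager) were all measured, and Sftpc, which defines type II alveolar cells, was at 0 reads in 4 libraries. Their summed level was 802 to 2160 TPM in Kl/Kl and 5.42 to 738 TPM in control ∆UCS males, 1999 to 2835 and 227 to 1117 TPM in females, and 446 to 2144 and 356 to 1533 TPM in Bmp2+/+ males. The control female with 0.545 TPM of Agtr2 had the highest airway sum of its group, 1117 TPM, and the Kl/Kl Bmp2+/+ male with 0.536 TPM had 2144 TPM, against 502 and 446 TPM in the other Kl/Kl males. By contrast the control Bmp2+/+ male with the lowest Agtr2 level of its group, 0.0515 TPM, had 1533 TPM of airway genes. Over the 22 libraries Agtr2 correlated with the airway sum at r = 0.671, and at 0.455 after the group means were removed (0.683 and 0.577 over all 24). The same pair of values was 0.600 and 0.14 with macrophage genes (0.606 and 0.476 over all 24), −0.671 and −0.352 with brown adipocyte genes, and 0.576 and 0.486 with fibroblast genes. With kidney genes the pair was 0.504 and 0.146, and with Schwann cell genes 0.0783 and 0.563. The last value was the highest of the lists after the group means were removed over the 22 libraries. Fibroblast sums were 51.1 to 119.3 TPM in Kl/Kl and 43.23 to 101.9 TPM in control ∆UCS males, 92.94 to 125.8 and 41.23 to 64.78 TPM in females, where they did not overlap, and 53.59 to 136.3 and 44.66 to 86.62 TPM in Bmp2+/+ males. Macrophage sums were 48.3 to 125 TPM in Kl/Kl and 12.1 to 27.8 TPM in control ∆UCS males, 134 to 189 and 10.5 to 14.7 TPM in females, and 96.1 to 197 and 10.1 to 39.1 TPM in Bmp2+/+ males. The part of these cell types in the Agtr2 difference was not tested.

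**Figure D3:**
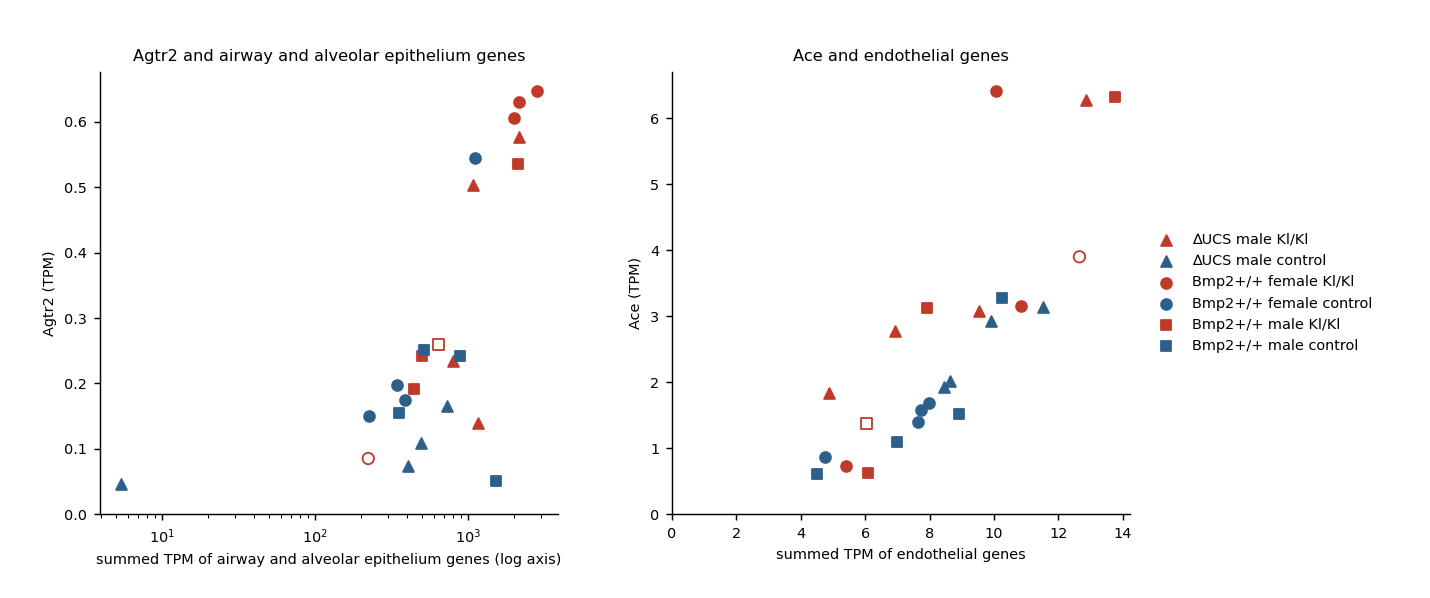
Left, Agtr2 TPM against the summed TPM of 6 airway and alveolar genes (log axis); right, Ace TPM against the summed TPM of 6 endothelial genes (linear axes from 0). Each point is a library, Kl/Kl red and control blue, open where the library went against its labelled sex; the 3 Kl/Kl females lie at 1999 to 2835 TPM of airway genes and 0.606 to 0.647 TPM of Agtr2.

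The ratio of Agtr2 to Agtr1a within a library does not depend on the library's scaling, and it was chosen after the values were seen, so it carries no test. Because TPM here is per genomic span, its size says nothing of which receptor had more transcript, and it only compares libraries. It was 1.23 to 2.99 in Kl/Kl ∆UCS males, against 0.337 to 0.825 in control ∆UCS males. In females it was 3.74 to 5.20 in Kl/Kl and 0.908 to 5.88 in control libraries, and in Bmp2+/+ males 1.04 to 2.12 and 0.408 to 1.81. The groups were separate in ∆UCS males and overlapped in the others, and the highest ratio of all, 5.88, belonged to the control female with the high Agtr2 level.

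Nr3c1, the glucocorticoid receptor gene (ENSMUSG00000024431, chromosome 18, 39543598 to 39652474, minus strand), had the narrowest range of the 8 in relative terms, 0.590 to 1.76 TPM over 24 libraries, with 2180 to 7706 reads. It measured 1.76, 1.19, 1.03 and 0.590 TPM in Kl/Kl ∆UCS males, against 1.04, 0.706, 1.25 and 1.1 TPM in control ∆UCS males. Females had 1.38, 1.12 and 1.37 TPM in Kl/Kl, with 1.09 TPM in the library against its label, against 1.04, 0.904, 0.871 and 1.17 TPM in controls. Bmp2+/+ males had 1.55, 0.885 and 0.959 TPM in Kl/Kl, with 0.846 TPM in the library against its label, against 1.37, 1.16, 0.799 and 0.652 TPM in controls. Of the Kl/Kl females 2 lay above all control females, and the groups overlapped in all 3 strata. The mean log2 change was 0.20, with a 95% interval of −0.21 to 0.61 (limma adjusted p = 0.510), 0.17 ± 0.18 with all 24 libraries (0.555), and −0.20 ± 0.14 under median-of-ratios scaling (limma adjusted p = 0.396). A change in glucocorticoid receptor mRNA was not detectable, and the interval leaves room for a rise of up to 0.61 on the log2 scale.

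Nr3c2, the mineralocorticoid receptor gene (ENSMUSG00000031618, chromosome 8, 77626070 to 77971641, plus strand), spans so much genome that its TPM is low although it had 191 to 854 reads. Its level was 0.0346, 0.0519, 0.0465 and 0.0120 TPM in Kl/Kl ∆UCS males, against 0.0419, 0.0243, 0.0411 and 0.0507 TPM in control ∆UCS males. It was 0.0483, 0.0388 and 0.0379 TPM in Kl/Kl females, with 0.0449 TPM in the library against its label, against 0.0294, 0.0350, 0.0330 and 0.0431 TPM in control females. It was 0.0580, 0.0213 and 0.0182 TPM in Kl/Kl Bmp2+/+ males, with 0.0373 TPM in the library against its label, against 0.0507, 0.0309, 0.0295 and 0.0254 TPM in control males. All groups overlapped, and 3 of the 10 Kl/Kl libraries held the lowest values of the whole set. The mean log2 change was −0.07 ± 0.23 (limma adjusted p = 0.874), −0.0083 ± 0.21 with all 24 libraries (0.985), and −0.39 ± 0.17 under median-of-ratios scaling (limma adjusted p = 0.146). The 2 receptors rose and fell together over the 22 libraries (r = 0.727, and 0.707 over all 24), more closely than any other pair of the 8. The ratio of Nr3c2 to Nr3c1, which likewise compares libraries and not the 2 genes, was 0.0196 to 0.0450 in Kl/Kl and 0.0329 to 0.0461 in control ∆UCS males, 0.0277 to 0.0349 and 0.0284 to 0.0387 in females, and 0.0190 to 0.0375 and 0.0267 to 0.0390 in Bmp2+/+ males.

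Hsd11b1, the glucocorticoid-regenerating enzyme gene (ENSMUSG00000016194, chromosome 1, 192903942 to 192946383, minus strand), had 2020 to 9289 reads. Kl/Kl ∆UCS males had 2.21, 1.49, 1.83 and 1.65 TPM, against 2.02, 3.64, 4.30 and 1.83 TPM in control ∆UCS males. Kl/Kl females had 1.39, 4.72 and 2.71 TPM, with 2.52 TPM in the library against its label, against 3.32, 2.61, 4.00 and 2.55 TPM in control females. Kl/Kl Bmp2+/+ males had 3.15, 5.42 and 1.57 TPM, with 4.74 TPM in the library against its label, against 2.52, 2.17, 1.61 and 1.93 TPM in control males. In ∆UCS males 2 control libraries lay above all 4 Kl/Kl libraries, and the groups overlapped. Values ran from 1.83 to 4.30 TPM in controls and from 1.49 to 2.21 TPM in Kl/Kl, and the difference in spread was not tested. The log2 change was −0.63 ± 0.38 in ∆UCS males, −0.23 ± 0.41 in females and 0.47 ± 0.41 in Bmp2+/+ males, with limma adjusted p of 0.458, 0.777 and 0.835. With all 24 libraries it was −0.63, −0.24 and 0.72, and 0 of these were called. Of the 8 members Hsd11b1 had the largest difference of the Kl/Kl effect between ∆UCS and Bmp2+/+ males, −1.1 with a 95% interval of −2.27 to 0.07 (unadjusted p = 0.0643, limma adjusted p = 0.966). With all 24 libraries that difference was −1.36 ± 0.54 (unadjusted p = 0.0198) and was not called either (limma adjusted p = 0.9998). Within library set 1 alone it was −1.67 ± 0.61 (limma unadjusted p = 0.0188, adjusted p = 0.820). With median-of-ratios scaling the mean over strata was −0.53 ± 0.33 (limma adjusted p = 0.329).

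Hsd11b2, the glucocorticoid-inactivating enzyme gene of kidney tubules and other aldosterone targets (ENSMUSG00000031891, chromosome 8, 106245387 to 106250620, plus strand), had 0 to 22 reads and is the least precisely measured of the 8. Kl/Kl ∆UCS males had 13, 22, 11 and 12 reads, against 1, 7, 11 and 5 reads in control ∆UCS males. Kl/Kl females had 22, 20 and 4 reads, with 3 reads in the library against its label, against 7, 2, 0 and 6 reads in control females. Kl/Kl Bmp2+/+ males had 19, 5 and 2 reads, with 6 reads in the library against its label, against 4, 7, 10 and 0 reads in control males. The 2 controls at 0 reads allow up to 3 reads each, which is 0.0249 TPM in the female and 0.0133 TPM in the male. Kl/Kl ∆UCS males averaged 0.0777 ± 0.0402 TPM and control ∆UCS males 0.0251 ± 0.0195 TPM (SD, n = 4 each), and 2 Kl/Kl libraries lay below the highest control. The fitted log2 change was 1.41 ± 0.66 in ∆UCS males, 1.52 ± 0.71 in females and 0.35 ± 0.72 in Bmp2+/+ males, values that depend on the pseudocount and are no bounds. Their limma adjusted p were 0.350, 0.249 and 0.942, and the mean over strata was 1.09 ± 0.40 (limma adjusted p = 0.0776). With all 24 libraries the 3 changes were 1.41, 1.17 and 0.58, and their mean was 1.05 ± 0.38 (limma adjusted p = 0.0930). The summed kidney markers came nearly all from Nphs1, a podocyte gene at 1.89 to 8.68 TPM, while the tubule and collecting duct genes in the sum had medians of 0.00163 to 0.0801 TPM. The sum was 4.85 to 8.89 TPM in Kl/Kl and 1.95 to 3.72 TPM in control ∆UCS males, 4.54 to 6.74 and 2.40 to 6.05 TPM in females, and 4.52 to 8.80 and 2.70 to 5.53 TPM in Bmp2+/+ males. Hsd11b2 went with that sum at r = 0.591 and with the airway sum at r = 0.639 (0.596 and 0.645 over all 24). After the group means were removed these were 0.357 and 0.555 over the 22 libraries. Its r was higher with fibroblast (0.683) and chondrocyte (0.661) genes, and 0.61 with macrophage genes. The part of any of these in its values was not tested.

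The second question was whether the ∆UCS mutation changed these genes. limma called 0 of 8 members between ∆UCS and Bmp2+/+ males among controls and 0 of 8 among Kl/Kl mice, where 0% of all tested genes were called in either comparison. At an unadjusted p under 0.05 the counts were 0 of 8 among controls (3.95% of all genes) and 1 of 8 among Kl/Kl mice (2.5%), and voom called 0 in both. The 1 gene was Hsd11b1, at 1.79 ± 0.307 TPM in Kl/Kl ∆UCS males (SD, n = 4) and 3.38 ± 1.94 TPM in Kl/Kl Bmp2+/+ males (n = 3), a log2 change of −0.93 ± 0.43 (unadjusted p = 0.0435, limma adjusted p = 1). It was −1.22 to −0.48 with each library left out in turn, with an unadjusted p under 0.05 in 2 of 7 fits, and −1.06 with all 24 libraries (unadjusted p = 0.0211). The unadjusted p was 0.143 with median-of-ratios scaling, 0.130 by voom and 0.0858 without the library set as a term. Among controls the log2 changes ran from −0.72 ± 0.75 for Hsd11b2 to 0.69 ± 0.78 for Ace, and among Kl/Kl mice from −1.23 ± 0.86 for Agt to 0.34 ± 0.75 for Hsd11b2. No member was free of overlap in either comparison, in which 1.87% and 1.65% of all genes were (1.87% and 0.633% with all 24 libraries). Library set 2 held no ∆UCS library, so a comparison within set 1 rests on 2 Bmp2+/+ males a group, and it called 0 of 8 members. Within set 1 the Hsd11b1 log2 change among Kl/Kl males was −1.215 ± 0.43 (limma unadjusted p = 0.0161, adjusted p = 0.9999).

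The Kl/Kl effect itself was compared between strata by interaction terms. limma called 0 of 8 for ∆UCS minus Bmp2+/+ males and 0 of 8 for Bmp2+/+ females minus males, where 0% of all tested genes were called in each, and none had an unadjusted p under 0.05 (3.72% and 3.12% of genes had). Under median-of-ratios scaling 0 of 8 were called beside 0.00368% and 0% of genes, and voom called 0 of 8 in both. With all 24 libraries 0 of 8 were called and Hsd11b1, given above, had an unadjusted p under 0.05. For Agtr2 the difference was 0.77 ± 0.84 between the Bmp2 genotypes and 0.47 ± 0.87 between the sexes. The 95% intervals ran from −0.98 to 2.53 and from −1.35 to 2.29, so these data do not show that the Agtr2 changes were alike.

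Of 16 other renin-angiotensin genes, 13 passed the filter. This list and those below were chosen with earlier results of these data known, so their shares beside all genes are a description. limma called none in ∆UCS males (5 had an unadjusted p under 0.05, as did 13.9% of all genes) or Bmp2+/+ males (3 had, beside 8.39%), while voom called Ctsa in both and Atp6ap2 in Bmp2+/+ males. In females 2 of 13 rose, beside 1.8% of all genes, Ctsa (1.67 ± 0.36, limma adjusted p = 0.0188) and Atp6ap2 (1.40 ± 0.29, adjusted p = 0.0156), and 0 were called there with all 24 libraries. Averaged over strata 4 of 13 rose and none fell, where 11.7% of all genes rose, with a median change of 0.41 beside 0.35 over all genes. Ren1, the gene of renin itself, was the largest at 1.69 ± 0.35 (limma adjusted p = 0.00473). Its level was 0.0551 to 0.0832 TPM in Kl/Kl and 0.00585 to 0.0162 TPM in control ∆UCS males, 0.0317 to 0.469 and 0.0146 to 0.0311 TPM in females, and 0.0329 to 0.0782 and 0.00244 to 0.0334 TPM in Bmp2+/+ males, where the groups overlapped. Reads were few, 10 to 155 in the 10 Kl/Kl and 1 to 11 in the 12 control libraries. Anpep, the aminopeptidase N gene (1.46 ± 0.34), Ctsa, which encodes the lysosomal protease cathepsin A (1.29 ± 0.20), and Atp6ap2, the (pro)renin receptor and proton pump subunit (1.16 ± 0.17), rose as well, with limma adjusted p of 0.00916, 0.000535 and 0.000209. The same 4 genes were called with all 24 libraries, under median-of-ratios scaling and by voom, the last 2 of which also called a fall of the peptidase gene Mme (−0.88 and −0.84). Ctsa, Anpep and Atp6ap2 are expressed by macrophages too, whose summed markers did not overlap between Kl/Kl and control libraries in any stratum, as given above, and their part was not tested. Mas1, another receptor gene for angiotensin peptides, had 1 to 31 reads per library and was below the filter.

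Of 15 genes that carry or limit AT1 signalling, 14 passed the filter. Nox4, an NADPH oxidase gene, rose in Bmp2+/+ males (2.29 ± 0.51, limma adjusted p = 0.0494), though not with all 24 libraries (1.85 ± 0.49, adjusted p = 0.565). Its level was 0.265 to 1.07 TPM in Kl/Kl and 0.0407 to 0.191 TPM in control Bmp2+/+ males. Averaged over strata Nox4 (1.13 ± 0.28) and Rgs2 (1.1 ± 0.25), a brake on Gq-coupled receptors, were the 2 called, both higher, with limma adjusted p of 0.0147 and 0.00838. These 2 of 14 stand beside 13.2% of all genes called, so their share is near that of all genes. Both were called with all 24 libraries (0.99 and 0.92). Median-of-ratios scaling kept Rgs2 (0.70, adjusted p = 0.0426) and not Nox4 (0.75, adjusted p = 0.0953), and it called falls of Plcb3 and Gna11. The list's median was 0.14 beside 0.35 over all genes.

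**Figure D4:**
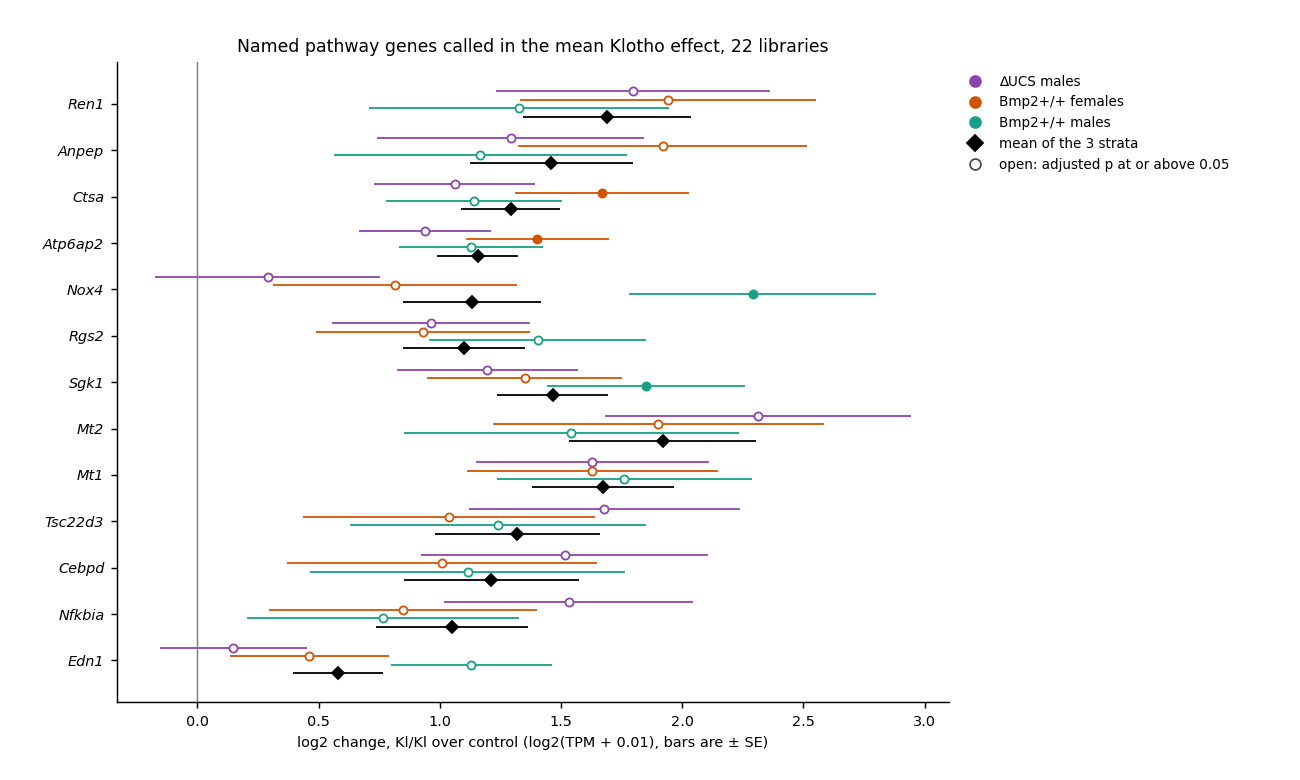
Log2 change, Kl/Kl over control, with SE, of the pathway genes named in the text as called in the mean over strata (22 libraries), in ∆UCS males, Bmp2+/+ females, Bmp2+/+ males and the mean; filled markers have a limma adjusted p under 0.05. Ren1 (1.69) and Mt2 (1.92) have the largest means, and single strata are filled for Ctsa, Atp6ap2, Nox4 and Sgk1.

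All 16 listed glucocorticoid receptor target genes were tested, and averaged over strata 6 rose and none fell, where 11.7% of all genes rose, with a median change of 0.89 beside 0.35 over all genes. Because the list was chosen with earlier results of these data known, its share beside all genes carries no test. Mt2 (1.92 ± 0.39) and Mt1 (1.67 ± 0.29) encode metallothioneins, which metals and cytokines induce as well. Sgk1, a kinase gene that both corticosteroid receptors induce, rose by 1.47 ± 0.23, and Tsc22d3, which encodes the glucocorticoid-induced leucine zipper, by 1.32 ± 0.34. Their limma adjusted p were 0.00418, 0.00149, 0.000483 and 0.0173. Cebpd and Nfkbia, which inflammatory signals also induce, were called too (1.21 and 1.05), but not under median-of-ratios scaling, which called 4 of the 16 beside 10.4% of all genes. With all 24 libraries the same 6 were called, and Ddit4 as well. Fkbp5, a receptor co-chaperone gene and a widely used glucocorticoid target, was not called (1.49 ± 0.60, limma adjusted p = 0.102). Its level was 0.136 to 2.70 TPM in Kl/Kl and 0.108 to 0.967 TPM in control ∆UCS males.

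By stratum, Sgk1 was the 1 target called in Bmp2+/+ males (1.85 ± 0.41, limma adjusted p = 0.0469), where 0.556% of all tested genes were called. With all 24 libraries its change there was 1.502 (limma adjusted p = 0.565). limma and voom called 0 of 16 in ∆UCS males and in females. In these strata limma called 0.545% and 1.82% of all genes, and voom 1.21% and 3.27%. At an unadjusted p under 0.05 in limma, the counts were 8 of 16 in ∆UCS males (13.9% of all genes) and 3 of 16 in females (19.3%). Sgk1 measured 1.16 to 3.13 TPM in Kl/Kl and 0.411 to 0.750 TPM in control Bmp2+/+ males. The list's medians were 1.11 in ∆UCS males, 0.68 in females and 1.03 in Bmp2+/+ males, beside 0.41, 0.50 and 0.10 over all tested genes. Of 12 aldosterone and sodium transport genes, 11 were tested, and 3 rose in the mean and none fell, beside 13.2% of all genes called and with a median of 0.65 beside 0.35. Sgk1 and Edn1 (0.58 ± 0.19) were among the 3, with limma adjusted p of 0.000483 and 0.0458, while the 3 sodium channel subunit genes were not called. Edn1, the endothelin-1 gene, was not called under median-of-ratios scaling or with all 24 libraries. Of 16 steroid receptor chaperones and coregulators, 0 were called by limma in the mean (13.2% of all genes) or in any stratum. At an unadjusted p under 0.05 the counts were 2 in the mean (30% of all genes) and 2 in ∆UCS males (13.9%). Median-of-ratios scaling and voom each called falls of Fkbp4 and Stip1 in the mean, where they called 10.4% and 14.3% of all genes in either direction. H6pd, which supplies the cofactor of the Hsd11b1 enzyme, changed by 0.04 ± 0.36 (limma adjusted p = 0.957). Of 7 adrenal steroid synthesis genes 5 were tested and 0 were called, and voom called 0 of the 3 it tested. At an unadjusted p under 0.05 the counts were 1 in the mean (30% of all genes) and 2 in ∆UCS males (13.9%). Cyp11b1, which makes corticosterone, was at 0 reads in 15 of 24 libraries.

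The genes whose levels most resembled each member were ranked by Pearson's r on log2(TPM + 0.01) over the 22 libraries, among genes with a mean of at least 1 TPM. Such values share library, groups and scale, and are given as a description. Ace had the closest companions, Pkd1 (0.957), Slc39a1 (0.950) and Foxc2 (0.946), followed by Nr3c1 with Adam17 (0.937), Cbx5 (0.933) and Sppl2a (0.932). Agt resembled Tcn2 (0.860), Cyp2d22 (0.833) and Tpsab1 (0.8293), and Agtr1a resembled Atp1b2 (0.802), Dennd5a (0.784) and Zcchc24 (0.782). Agtr2 was nearest to Kcnj2 (0.859), Lamp2 (0.859) and Chil1 (0.851). Nr3c2 was nearest to Sort1 (0.859), Kif1b (0.855) and Fyco1 (0.854), and Hsd11b2 to Tsc22d1 (0.798), Odf3b (0.795) and Lbp (0.785). Hsd11b1 stood most apart, with Amy1 (0.647), Tmem45b (0.611) and Pdha1 (0.584) as its nearest genes, and its r with each other member lay between −0.298 and 0.0386. Among the members Ace, Agt and Agtr1a went together at r of 0.600 to 0.647, while Agtr2 and Agtr1a had an r of 0.10.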

How the data were processed

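Per the submitters' processing notes, the authors made the deposited TPM values with Partek on mm39; the sources used here do not give the aligner, the annotation release, strand use or the handling of reads that match several genes. Each column sums to 482073. Reads per gene were estimated as TPM times genomic span over each library's floor of 0.0001 read, and 72.9% of estimates between 0.5 and 20 reads lay within 0.05 of a whole number. All 24 sample columns were used (0 unused), and 0 pairs of libraries were identical. limma 3.58.1 in R 4.3.3 was run on log2(TPM + 0.01), which understates changes of low genes, over genes reaching 0.02 TPM in 4 or more libraries. Its terms were a mean for each of 6 groups and the library set (1 or 2, from the spelling of the library names), with eBayes trend, two-sided tests and Benjamini-Hochberg adjustment at 0.05, on 22 libraries. No replicate block was used, since replicate numbers do not mark shared animals. Some control and Kl/Kl libraries have neighbouring numbers in their names and equal ages, such as FDK266 and FDK267, females of 53 days. Whether such animals were related or handled together is not stated. The fits treat them as unpaired, and a pairing by name was not tested. The procedure was tested on simulated data. Named genes are the members, up to 4 called genes per list and Kl/Kl comparison, the 3 genes most like each member, and Spp1; Cebpd, Nfkbia, Fkbp5, Mas1, Agtr1b, Mme, H6pd, Cyp11b1, Plcb3, Gna11, Fkbp4 and Stip1 were added after their values were seen. Some list genes that this rule covers are not reported here. The members and lists were chosen with earlier results of these data known. Exon lengths come from a GENCODE annotation of another build, and are used for order of level alone. The libraries carry separate names, and p-values measure the spread between libraries. Alternatives covered libraries, scaling, pseudocount, filters, covariates, samples in the fit, library set, voom on estimated reads (10 or more reads in 4 or more libraries) and leaving out each replicate; voom and median-of-ratios scaling with all 24 libraries were added after seeing the data.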

Additional observations from a re-analysis of the deposited data

Results flagged for a closer look

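In 3 of 48 groups of 4 libraries (8 genes in 6 groups, as labelled), 1 library lay far from the other 3, where chance gives about 1 in 20. Agtr2 was 0.0852 TPM in replicate 2 of the Kl/Kl Bmp2+/+ females, the library against its labelled sex, with the next at 0.606 TPM. Agtr2 was 0.545 TPM in replicate 1 of the control Bmp2+/+ females, with the next at 0.198 TPM. Nr3c1 was 1.55 TPM in replicate 2 of the Kl/Kl Bmp2+/+ males, with the next at 0.959 TPM. Of 16 interaction terms none was called.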

How the results depend on the processing

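The count of members called was 0 under each alternative that could be fitted for the 3 strata, for ∆UCS against Bmp2+/+ and for the interactions. For the mean over strata it was 1 in the fit reported, and 0 with all 24 libraries, 0 under median-of-ratios scaling, 0 with a pseudocount of 1 and a TPM of at least 1 (a filter that removes Agtr2), and 0 with voom or median-of-ratios scaling on all 24 libraries. Leaving out 1 replicate at a time gave 1 to 2; the second gene was Hsd11b2, called without Kl/Kl Bmp2+/+ male replicate 3 (1.25, adjusted p = 0.0364) and without Kl/Kl Bmp2+/+ female replicate 4 (1.28, adjusted p = 0.0451). Agtr2 was 1.09 with all 24 libraries, 0.96 under median-of-ratios scaling, 0.81 with voom on all 24 and 0.74 with median-of-ratios scaling on all 24. Of 832 values of members under alternatives other than leaving out replicates, 828 kept their side of the threshold. Only 1 member value, the mean of Agtr2, was called in the fit reported, and the 4 that changed side were that mean. It kept its sign, but values that were not called did change sign. Under median-of-ratios scaling 2 of 8 members did so in ∆UCS males, 3 in females, 1 in Bmp2+/+ males and 2 in the mean. Counts over all genes moved more. They were 148, 494, 151 and 3592 in ∆UCS males, females, Bmp2+/+ males and the mean, against 2, 0, 0 and 1822 with all 24 libraries. Fits of the compared groups alone called 61, 921 and 8, voom 270, 728 and 336, median-of-ratios scaling 256 in Bmp2+/+ males, library set 1 alone 50 in ∆UCS and 12 in Bmp2+/+ males, and set 2 alone 1386 in females. Calls in the mean split into 3181 higher and 411 lower, and 1125 higher and 1705 lower under median-of-ratios scaling; in females the splits were 489 and 5, and 389 and 251. Leaving out 1 replicate at a time gave 80 to 307, 191 to 568, 43 to 328 and 964 to 6937 calls; the lowest count in the mean was without Kl/Kl Bmp2+/+ male replicate 4 and the highest without Kl/Kl ∆UCS male replicate 4. With the replicate block 1 member was called in the mean and 0 elsewhere, with 113, 319 and 112 genes in the 3 strata; deviations of same-numbered libraries correlated at −0.304 to 0.222, so the numbers do not pair them. The causes were not tested. Agtr2, Hsd11b2 and Ren1 are limited by their few reads; intervals on 0 reads cover counting error only.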
